A study of Homo sapiens with 6 samples.

Results

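The ZNF genes of human chromosome 19 were followed from LNCaP cells into an enzalutamide-resistant derivative of the same line. The set holds the 249 protein-coding genes of chromosome 19 whose symbol begins with ZNF, out of 35554 genes in the count table. Of these, 98 start beyond position 51600000 (GRCh38) and are called the distal genes, since they lie toward the end of the long arm. The other 151, spread over the short arm and the earlier part of the long arm, are called the remaining genes. LNCaP is an established line from a metastatic prostate carcinoma whose growth depends on the androgen receptor, and enzalutamide is a drug that blocks that receptor. Parental LNCaP (n = 3) was compared with LNCaP-enzaR (n = 3), which the study derived from the parental line by continuous exposure to enzalutamide and then kept on a lower dose of the drug, so that resistance and presence of the drug cannot be told apart. Each group was 1 cell line grown in 3 flasks, and p-values measure the spread between flasks. The position that separates the groups was proposed with the fold changes of this same contrast in view, so the groups were chosen on the values described here, and the distal and remaining genes are set side by side without a test.

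ZNF proteins of this kind carry rows of C2H2 zinc fingers, short loops held by a zinc ion that read DNA sequence. Many also carry a KRAB box, which recruits the corepressor TRIM28 and, through it, the histone methyltransferase SETDB1 and heterochromatin proteins. The family grew by repeated local duplication, mostly on chromosome 19, where its genes stand in dense clusters, and many members bind and silence transposable elements. Resemblance to the KRAB consensus was found by a pattern search in the predicted proteins of 210 genes, among them 81 of the 98 distal genes, while 1 gene had no translated sequence to search. The median number of finger patterns per protein was 12 among the distal genes and 12.5 among the remaining genes.

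The libraries held 77759122 to 98616465 counts, so that 3 counts corresponded to 0.0302 to 0.0382 CPM (counts scaled to a library of 1000000). The 8 markers of luminal prostate cells were all present, and their summed level ran from 4758 to 4879 CPM in LNCaP and from 4277 to 4433 CPM in LNCaP-enzaR. The markers of other cell types, 5 of 6 listed being in the table, summed to 12.4 to 15.1 CPM in LNCaP and 4.12 to 4.87 CPM in LNCaP-enzaR. Almost all of that was COL1A1, and the rest summed to at most 0.0907 CPM in any library. Of the 249 genes, 235 passed the filter on low counts (95 distal and 140 remaining), and the 14 others had a mean of at most 0.103 CPM.

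With a fold limit of 1.5, a smaller share of the ZNF genes of chromosome 19 rose in LNCaP-enzaR than of genes in general. The share that fell was near the background at that limit. A gene was counted as changed when its adjusted p (edgeR quasi-likelihood test, Benjamini-Hochberg over all genes tested) was at most 0.05 and its fold change at least 1.5. By that threshold 49 of the 235 genes fell, 14 rose and 172 did not pass. In bulk RNA, less transcript per cell and fewer cells with the transcript cannot be told apart. Across all 19711 genes tested 42.7% passed, 23.3% as higher and 19.5% as lower. Of the ZNF genes 26.8% passed, 5.96% as higher and 20.9% as lower. Among the 234 ZNF genes tested on other chromosomes 26.5% passed, 11.5% as higher and 14.96% as lower. A higher share below that of all genes was therefore not particular to the ZNF genes of chromosome 19. With the adjusted p alone as the limit, 116 of the 235 ZNF genes were lower and 32 higher. Across all 19711 genes tested 6467 (32.8%) were lower and 6607 (33.5%) higher. Without the fold limit, then, the lower share of the ZNF genes was above the background and the higher share below it.

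The medians of the distal and remaining genes lay close together. The median log2 fold change was -0.27 over the 95 distal genes, of which 70 lay below 0, and -0.19 over the 140 remaining genes, of which 93 lay below 0. The median over all genes tested was 0.01. Among the distal genes 21 fell and 2 rose (24.2% past the threshold), and among the remaining genes 28 fell and 12 rose (28.6%). The distal region was not lower as a whole: of its 72 other protein-coding genes tested, 22 rose and 9 fell, with a median log2 fold change of 0.05. Likewise 194 of the 738 other protein-coding genes in the rest of the chromosome rose and 99 fell. The 234 ZNF genes tested on other chromosomes gave 27 higher and 35 lower, with a median of -0.12. Summed over all distal ZNF genes, the mean level in LNCaP was 1791 ± 25.7 CPM (SD, n = 3) and that in LNCaP-enzaR 1495 ± 19.2 CPM. The corresponding sums over the remaining ZNF genes were 2129 ± 56.4 and 1724 ± 106 CPM.

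**Figure D1:**
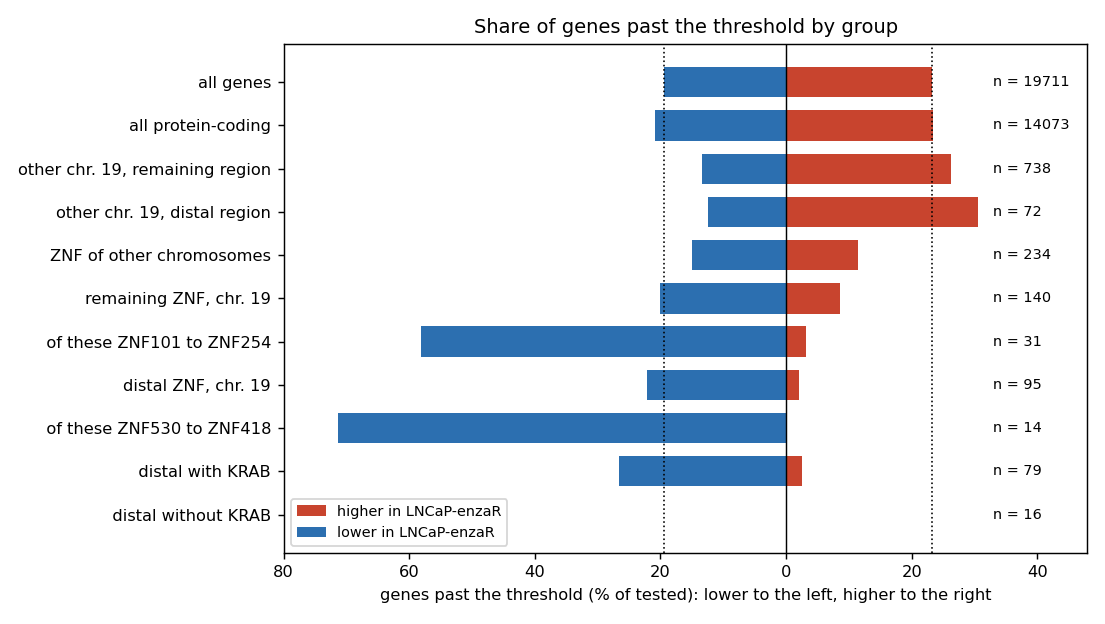
Share of tested genes past the threshold in each group, with lower genes drawn to the left and higher genes to the right of 0, and dotted lines at the shares over all genes (19.5% lower, 23.3% higher). The ZNF groups have short bars on the right, and the bars on the left are longest for ZNF530 to ZNF418 (71.4%) and ZNF101 to ZNF254 (58.1%).

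The genes nearest to the dividing position are given for description. The 3 tested genes just before it were ZNF541, ZNF473 and ZNF175, with log2 fold changes of 3.81, -0.24 and 0.25. The 3 just beyond it were ZNF577, ZNF649 and ZNF613, with -1.04, -1.50 and -0.55. Of these 6, ZNF541, ZNF577 and ZNF649 passed the threshold. ZNF541, a gene known from meiosis in the testis, had 1, 4 and 5 counts in the LNCaP libraries and 49, 44 and 60 in LNCaP-enzaR, so its fold rests on very few reads. ZNF473, whose protein takes part in processing of histone transcripts, stood at 18.5 to 19.3 CPM in LNCaP and 15.2 to 17.2 CPM in LNCaP-enzaR.

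Promoter sequences are shown for the ZNF gene that fell most and the one that rose most in each group among genes with a mean of at least 1 CPM, because the count of CG dinucleotides, the sites of DNA methylation, was lower among the genes that fell (counts are given with the promoter results). Each is the 250 bases before the gene start on the gene's own strand, written 5′ to 3′ from RefSeq (GRCh38.p14), with CG in capitals.
ZNF671 (distal, lower), chr19:57727625-57727874, minus strand: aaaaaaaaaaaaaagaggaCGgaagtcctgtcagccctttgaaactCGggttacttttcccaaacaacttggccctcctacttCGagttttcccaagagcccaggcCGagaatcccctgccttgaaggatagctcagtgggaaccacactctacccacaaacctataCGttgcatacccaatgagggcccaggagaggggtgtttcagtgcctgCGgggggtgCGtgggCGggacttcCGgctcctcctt
ZNF135 (distal, higher), chr19:58058989-58059238, plus strand: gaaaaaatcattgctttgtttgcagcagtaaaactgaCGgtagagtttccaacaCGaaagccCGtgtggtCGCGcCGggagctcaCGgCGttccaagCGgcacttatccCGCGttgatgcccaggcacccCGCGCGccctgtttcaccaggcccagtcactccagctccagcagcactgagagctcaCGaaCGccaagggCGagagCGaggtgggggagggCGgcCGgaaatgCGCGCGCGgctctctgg
ZNF681 (remaining, lower), chr19:23758892-23759141, minus strand: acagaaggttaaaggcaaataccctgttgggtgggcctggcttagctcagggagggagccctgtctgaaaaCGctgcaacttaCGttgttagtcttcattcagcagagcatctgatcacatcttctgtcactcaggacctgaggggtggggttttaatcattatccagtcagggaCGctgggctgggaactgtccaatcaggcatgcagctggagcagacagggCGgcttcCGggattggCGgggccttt
ZNF556 (remaining, higher), chr19:2867085-2867334, plus strand: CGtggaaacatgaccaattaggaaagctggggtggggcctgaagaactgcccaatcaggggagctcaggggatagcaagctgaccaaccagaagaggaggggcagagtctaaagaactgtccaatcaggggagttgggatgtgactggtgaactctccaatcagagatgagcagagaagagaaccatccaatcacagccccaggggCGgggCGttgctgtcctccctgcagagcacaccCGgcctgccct
These windows held 9 CG in ZNF671, 24 in ZNF135, 6 in ZNF681 and 4 in ZNF556. A CG is present in 93.9% of all 35116 RefSeq promoter windows of this length, with a median of 11.

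**Figure D2:**
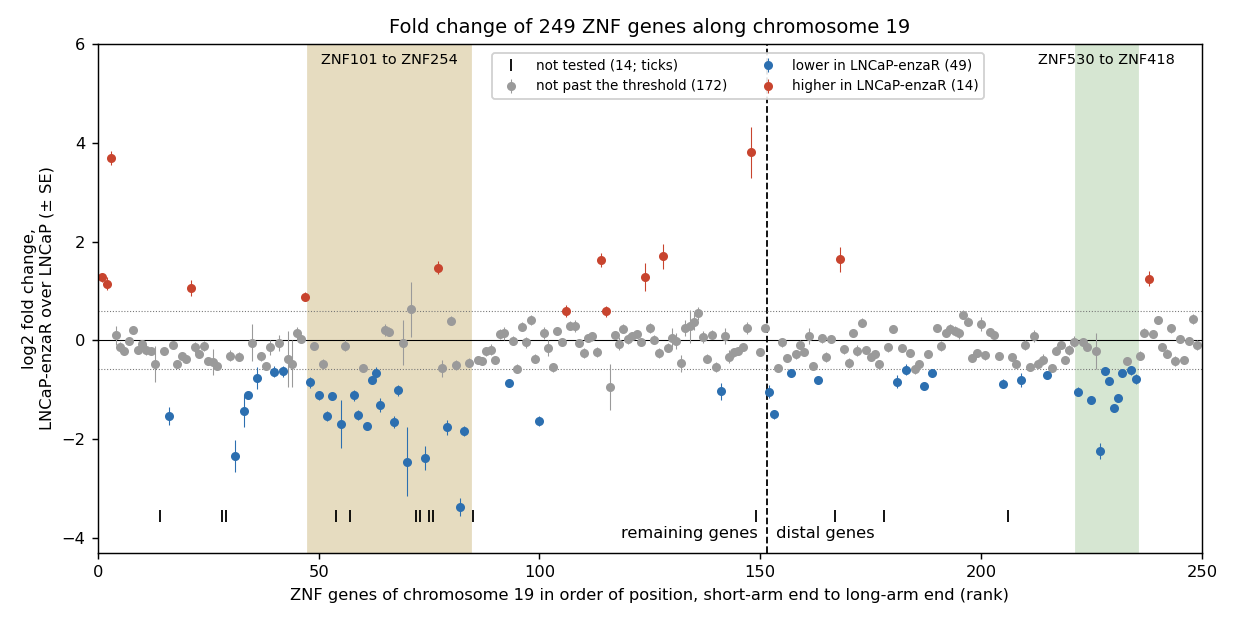
Log2 fold change (LNCaP-enzaR over LNCaP, ± SE) of the 235 tested ZNF genes in their order along chromosome 19, coloured by call, with ticks for the 14 genes not tested, dotted lines at 1.5-fold and a dashed line between the remaining and the distal genes. The shaded spans ZNF101 to ZNF254 and ZNF530 to ZNF418 hold 28 of the 49 lower genes, and the points elsewhere lie mostly between the dotted lines.

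The lower genes gathered in a pair of spans. When a new cluster was opened wherever neighbouring starts lay more than 1 Mb apart, the 249 genes fell into 16 clusters. The cluster from ZNF101 to ZNF254, on the short arm next to the centromere (chr19:19668796-24129968), held 37 genes, and of the 31 tested 18 fell and 1 (ZNF728) rose. Its median log2 fold change was -0.85, and its summed level went from 504 ± 25.03 CPM to 319 ± 41.2 CPM. Outside it the 109 other remaining genes gave 11 higher and 10 lower, with a median of -0.12. Within the distal genes, a run of 14 neighbours from ZNF530 to ZNF418 (chr19:57599885-57935402) had 10 genes that fell and none that rose, and all 14 lay below 0 with a median of -0.72. Its summed level was 285.7 ± 6.26 CPM in LNCaP and 172.9 ± 7.47 CPM in LNCaP-enzaR. The 81 distal genes tested outside this run gave 2 higher and 11 lower, with a median of -0.21. Both spans were singled out after their values were seen, so these counts describe them and test nothing, and together they hold 28 of the 49 lower genes.

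The counts of the larger clusters among the others, and of 2 small ones, were as follows. In the cluster nearest the short-arm end, ZNF554 to ZNF77, 3 of 5 genes rose (ZNF554, ZNF555 and ZNF556) and the median was 1.15. This small cluster was named after its values were seen, and in ZNF302 to ZNF792, also with 5 tested, no gene passed. In ZNF557 to ZNF846 (15 tested) 1 rose and 1 fell (median -0.21). The cluster ZNF653 to ZNF791 had 6 lower and 0 higher genes among 23 (median -0.38). In ZNF565 to ZNF573 (27 tested) 3 rose and 2 fell, and in ZNF575 to ZNF296 (24 tested) 2 rose and 1 fell, with medians of -0.01 and 0.03. The 2 large distal clusters, ZNF175 to ZNF331 (which includes 1 gene of the remaining group) and ZNF628 to ZNF446 (which contains the ZNF530 to ZNF418 run and its 10 lower genes), had medians of -0.28 and -0.24, with 8 of 38 and 13 of 58 genes lower.

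Few other protein-coding genes were tested inside the spans ZNF101 to ZNF254 and ZNF530 to ZNF418. Of the 2 other protein-coding genes tested inside ZNF530 to ZNF418, ZSCAN4 rose and the other did not pass. ZSCAN4, a C2H2 gene of the early embryo named here after its values were seen, had a log2 fold change of 6.22 (adjusted p = 9.12e-06, edgeR). It had 0, 1 and 0 counts in the LNCaP libraries and 42, 27 and 37 in LNCaP-enzaR, so its fold rests on very few reads. No other protein-coding gene was tested inside ZNF101 to ZNF254, and of 22 noncoding or pseudogene neighbours there 6 rose and 5 fell.

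Among the distal genes the largest fall with a mean of at least 1 CPM was that of ZNF671 (ENSG00000083814.13), which stood at 6.23, 6.15 and 5.11 CPM in LNCaP and 1.02, 1.11 and 1.56 CPM in LNCaP-enzaR. The groups did not overlap, and the log2 fold change was -2.24 ± 0.17 (SE; adjusted p = 2.33e-08, edgeR), a 4.71-fold fall. ZNF649 went from 14.5, 13.99 and 13.6 CPM to 4.61, 5.22 and 5.03 CPM, a log2 fold change of -1.50 ± 0.09 (adjusted p = 1.95e-09, edgeR). ZNF552 went from 28.7, 28.5 and 29.5 CPM to 11.2, 12.3 and 10.1 CPM, with -1.37 on the log2 scale. The 3 genes encode KRAB zinc finger proteins, with 9, 10 and 6 finger patterns. The next lowest were ZNF551 (-1.21), ZNF587B (-1.16), ZNF577 (-1.04), ZNF530 (-1.04) and ZNF765 (-0.92), and all 5 were below their LNCaP range in each LNCaP-enzaR library. Of these 8 genes, 5 lie in the ZNF530 to ZNF418 run (ZNF671, ZNF552, ZNF551, ZNF587B and ZNF530).

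Within that run ZNF134, which has no KRAB match, stood at 37.2 to 39.2 CPM in LNCaP and 36.9 to 38.9 CPM in LNCaP-enzaR (log2 fold change -0.02). ZNF211 (-0.13), ZNF154 (-0.22) and ZNF587 (-0.41) were the others that did not pass, and these 4 genes were picked out after their values were seen. The 10 that fell did so by 1.52-fold to 4.71-fold.

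Of the distal genes 2 rose. ZNF135 went from 1.66, 1.55 and 1.60 CPM to 4.14, 3.09 and 4.21 CPM, a log2 fold change of 1.25 ± 0.15 (adjusted p = 5.85e-06, edgeR). It shares 32.6% of its exonic bases with another gene and overlaps ZSCAN18, which also rose (1.39), and without a stated strand setting their reads cannot be told apart. The other distal gene that rose, ZNF578, was named after its values were seen because it lies below 1 CPM on average, and it went from 0.346, 0.418 and 0.611 CPM to 1.23, 1.48 and 1.55 CPM. The 7 next highest distal genes did not reach the fold limit: ZNF580 (0.52), ZNF324 (0.43), ZNF274 (0.42), ZNF581 (0.38), ZNF600 (0.35), ZNF582 (0.33) and ZNF331 (0.25). ZNF274 binds the ends of other zinc finger genes and brings SETDB1 to them, and its level was 36.0, 35.8 and 36.0 CPM in LNCaP against 48.4, 47.1 and 49.0 CPM in LNCaP-enzaR. That gap is larger than the spread of the flasks (adjusted p = 1.72e-05, edgeR), though under 1.5-fold.

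**Figure D3:**
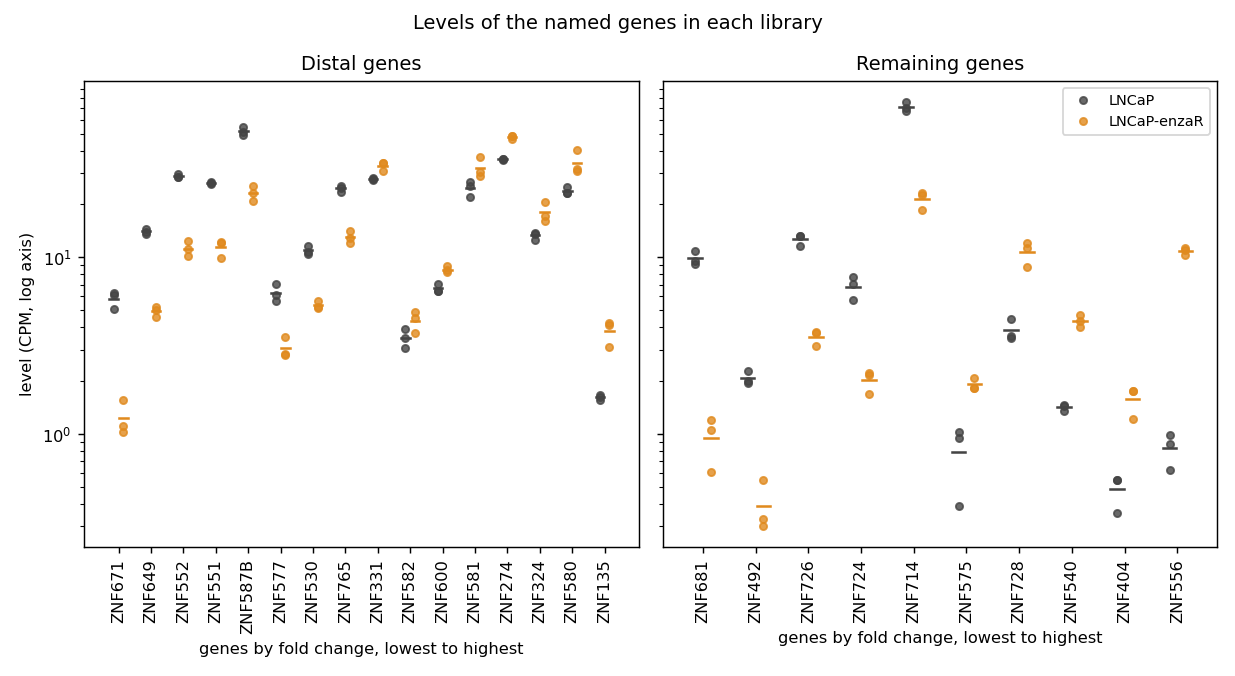
Level in CPM (log axis) of distal (left) and remaining (right) genes with the lowest and highest fold changes among those averaging at least 1 CPM. Each line of cells has 3 points and a bar at the mean, LNCaP in grey and LNCaP-enzaR in orange. The groups are apart for ZNF671 (5.83 against 1.23 CPM on average) and ZNF681 (9.86 against 0.947 CPM), and ZNF556 runs the other way (0.829 against 10.9 CPM).

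The remaining genes held the wider range. ZNF681 (ENSG00000196172.9), inside ZNF101 to ZNF254, went from 10.9, 9.18 and 9.51 CPM to 0.603, 1.19 and 1.05 CPM, a 10.4-fold fall (log2 fold change -3.37 ± 0.18, adjusted p = 6.03e-10, edgeR). ZNF257 (-2.46, same cluster) and ZNF763 (-2.33, in ZNF653 to ZNF791) also fell but lie below 1 CPM on average. Both were named after their values were seen. Among those with a mean of at least 1 CPM, ZNF492 (-2.38), ZNF726 (-1.83), ZNF724 (-1.76) and ZNF714 (-1.73) followed, all in the same cluster as ZNF681. ZNF714 was the most abundant of these, with 75.7, 70.1 and 67.3 CPM in LNCaP and 18.5, 22.5 and 23.1 CPM in LNCaP-enzaR. Of the sequence windows of 75 bases in the transcripts of ZNF724 and ZNF492, 42.6% and 23.7% also occur in another gene, so reads may be split between copies. ZNF728, from the same cluster, rose from 4.48, 3.51 and 3.59 CPM to 8.75, 11.3 and 12.1 CPM (1.47 on the log2 scale).

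ZNF556, in the short-arm cluster, rose from 0.875, 0.989 and 0.624 CPM to 10.3, 11.05 and 11.3 CPM, a 12.97-fold increase (log2 fold change 3.70 ± 0.14, adjusted p = 2.34e-11, edgeR). Its neighbours ZNF554 and ZNF555, named after their values were seen, rose by 1.27 and 1.15 on the log2 scale. ZNF404 (1.70), ZNF540 (1.63) and ZNF575 (1.29) were the other highest remaining genes with a mean of at least 1 CPM, all under 5 CPM in every library. ZNF541 (3.81), given above beside the dividing position, rose more but lies below that mean.

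Members with a described role against transposable elements did not move alike. ZNF91, which silences SVA elements, stood at 44.4, 42.3 and 41.1 CPM in LNCaP and 47.7, 61.7 and 59.0 CPM in LNCaP-enzaR, with a log2 fold change of 0.40 that did not reach the fold limit. ZNF93, which silences LINE-1 elements and lies in the same cluster, fell from 14.4, 13.5 and 12.3 CPM to 4.13, 4.89 and 4.84 CPM (-1.53, adjusted p = 6.41e-09, edgeR). Both were named for their roles after the values were seen.

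Levels per length put other genes first. The highest remaining genes were ZNF146 (37.6 CPM per kb, mean over all libraries), ZNF358 (23.8) and ZNF428 (11.8), and the highest distal genes were ZNF581 (17.4), ZNF787 (12.7) and ZNF580 (11.2). ZNF146, a protein made of little but zinc fingers, fell from 211, 196 and 196 CPM to 102, 116 and 113 CPM (log2 fold change -0.86 ± 0.06, adjusted p = 1.67e-08, edgeR). ZNF358 (-0.02), ZNF428 (0.01) and ZNF787 (-0.35) did not pass. The 6 lie well above the group medians of 2.61 CPM per kb for the distal and 1.58 CPM per kb for the remaining genes, while the median of all protein-coding genes was 3.96 CPM per kb. ZNF580 and ZNF581 overlap each other, so their levels are not independent.

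Genes with and without a KRAB match were counted apart. All 23 distal genes that passed the threshold carried it, 21 lower and 2 higher among 79 tested, with a median log2 fold change of -0.32. These are 26.6% lower and 2.53% higher, beside 19.5% and 23.3% of all genes tested. Of the 21 lower genes 10 lie in the ZNF530 to ZNF418 run, where 13 of 14 genes carry the match. The KRAB counts therefore overlap with that run, and shares outside it were not computed. None of the 16 tested distal genes without it passed, and their median was 0.14. At an adjusted p of at most 0.05 with no fold limit, 3 of those 16 rose and 3 fell. Among the remaining genes the counts were 25 lower and 10 higher of 119 with the match (29.4% past the threshold) and 3 lower and 2 higher of 20 without it (25%).

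Genes that fell had fewer CG in their promoters than the other ZNF genes. A promoter window was matched by symbol for 217 of the 249 genes, 207 of them tested. The median count was 18.5 in the distal genes (n = 86), 15 in the remaining genes outside ZNF101 to ZNF254 (n = 102), 8 in that cluster (n = 29) and 11 in the ZNF530 to ZNF418 run (n = 11). Genes that fell had a median of 11 CG (n = 41), genes that did not pass 17 (n = 154) and genes that rose 18 (n = 12). Among ZNF genes with 0 to 9 CG 14 of 28 fell (50.0%), with 10 to 14 CG 17 of 57 (29.8%), with 15 to 19 CG 9 of 56 (16.1%) and with 20 to 39 CG 1 of 66 (1.52%). Across all protein-coding genes with a matched window the lower shares were 22.0%, 21.4%, 20.6% and 21.4% in the same bins. The higher shares were 7.14%, 3.51%, 3.57% and 9.09% of the ZNF genes and 32.1%, 20.9%, 18.4% and 20.5% of all protein-coding genes. Without the ZNF101 to ZNF254 cluster the lower shares of the ZNF genes were 36.4% (n = 11), 22.9%, 16.1% and 1.52%. These shares still include the ZNF530 to ZNF418 run. Of the 4 lower genes left in the lowest bin, ZNF671, ZNF530 and ZNF587B (9, 8 and 8 CG) lie in that run. Shares without both spans were not computed, so whether the bins differ outside them was not tested. Neighbouring genes are often duplicates and share promoter sequence, the bins were set after the values were seen, and DNA methylation was not measured, so these shares are a description.

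**Figure D4:**
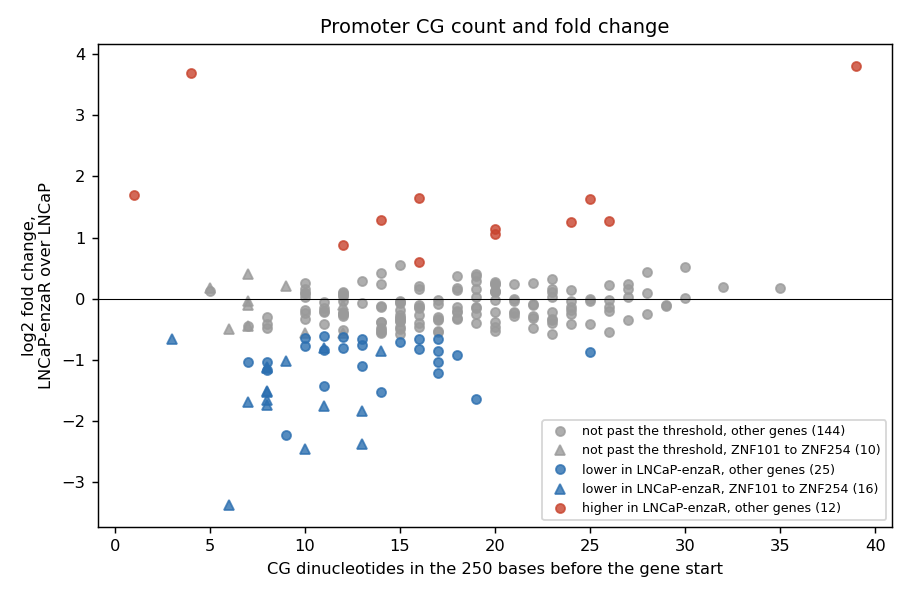
Log2 fold change of the 207 tested ZNF genes with a matched promoter against the number of CG dinucleotides in the 250 bases before the gene start, with triangles for ZNF101 to ZNF254 and circles for the other genes, coloured by call. Lower genes lie toward the left, where their median is 11 CG, and 1 of the 66 genes with 20 or more CG was lower.

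Chromosome 19 also carries ZNF loci that encode no protein. Of 41 such rows 33 were tested. Among the 11 pseudogenes 7 fell (63.6%) and 1 rose (9.09%), with a median log2 fold change of -0.83. Among the 22 long noncoding RNAs 4 fell and 4 rose (18.2% each). Across all genes tested 19.5% fell and 23.3% rose, so the shares of the long noncoding RNAs were near the background. The pseudogene with the largest fall, ZNF812P, named after its values were seen, went from 4.46, 5.73 and 5.66 CPM to 0.487, 0.385 and 0.322 CPM. Reads of pseudogenes and of their coding relatives may be shared. Other C2H2 genes of chromosome 19 were picked by symbol alone (ZSCAN, ZFP, ZIM, ZIK and ZBTB genes and PEG3), so C2H2 genes with different symbols are not counted. Of the 14 tested, 4 rose (28.6%) and 3 fell (21.4%), also near the shares over all genes. ZIK1, a KRAB zinc finger gene directly before ZNF530, fell by 1.63 on the log2 scale, and PEG3, an imprinted gene of the distal region, fell by 5.97, both named after their values were seen.

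Transcripts of proteins that KRAB zinc finger proteins work with were also counted. Of a list of 23 corepressor and heterochromatin genes, all tested, 8 fell and none rose, with a median log2 fold change of -0.36. The lower share was 34.8%, beside 19.5% of all genes, and the higher share 0%, beside 23.3%. In either direction 34.8% passed the threshold, beside 42.7% of all genes. TRIM28, the direct partner of the KRAB box, stood at 643, 657 and 661 CPM in LNCaP and 575, 465 and 471 CPM in LNCaP-enzaR, a log2 fold change of -0.38 that did not reach the fold limit (adjusted p = 0.000355, edgeR). SETDB1 (-0.20) did not reach it either. UHRF1, which brings the maintenance methyltransferase to newly copied DNA, fell from 83.1, 89.1 and 87.9 CPM to 15.7, 14.5 and 14.3 CPM (-2.55 ± 0.07, adjusted p = 4.97e-13, edgeR). DNMT1, that methyltransferase, fell from 214, 206 and 212 CPM to 85.2, 79.2 and 82.8 CPM (-1.35 ± 0.05, adjusted p = 3.22e-11, edgeR). The other 6 were SUV39H1, CHAF1A, CHAF1B, CBX3, CBX1 and CHD3, named after their values were seen, with -1.51 to -0.70 on the log2 scale. Whether these levels bear on the ZNF genes was not tested.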

How the data were processed

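Total RNA from 3 flasks each of LNCaP and LNCaP-enzaR was made into TruSeq mRNA libraries and sequenced as paired ends. The authors trimmed reads with Cutadapt, aligned them with STAR to GRCh38.p13 with GENCODE v38 and counted them per gene with featureCounts, and the deposited values are raw read counts. The strand setting, the treatment of multimapping reads and the unit counted (read or fragment) are not given in the sources used here.

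Counts were filtered with filterByExpr, scaled by TMM and tested with the robust quasi-likelihood F-test of edgeR 4.0.16 (R 4.3.3), with Benjamini-Hochberg adjustment over all genes tested. The procedure was tested on simulated data. The limits (adjusted p of at most 0.05, fold of at least 1.5) are those of the study, which used DESeq2. CPM are counts scaled to 1000000 per TMM-scaled library. Depth was 77759122 to 98616465 counts, and spread between flasks sets the precision. Alternatives were DESeq2 1.42.0, other scalings and filters, a replicate block and leaving out each library. Same-numbered flasks did not deviate together (correlations -0.0652 to -0.00041), so numbers do not pair them. Exon lengths, KRAB and finger patterns and shared windows came from GENCODE v44, in which 93.6% of the genes have the same coordinates, and promoters from RefSeq. CG is its own complement, so both strands give the same count.

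Genes named are those tested with a mean of at least 1 CPM and the 8 lowest and 8 highest distal or 5 lowest and 5 highest remaining fold changes, the 3 tested nearest to the dividing position on each side, the 3 highest per length in each group, and TRIM28, SETDB1 and the 2 partner genes with the smallest p. The genes, lists and this rule were chosen with earlier results of these data known.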

Additional observations from a re-analysis of the deposited data

How the results depend on the processing

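Both medians stayed below 0 and the counts past the threshold stayed within 1.5 times under DESeq2, other scalings, other filters and the replicate block. With the replicate number as a block 24 distal and 41 remaining genes passed, beside 23 and 40 without it, and it changed no call of a named gene. Upper-quartile scaling shifted all genes by a median of 0.10 (log2), moving the distal median to -0.17 and the remaining median to -0.08, with 15 distal genes lower, 3 higher and 7 lower genes from ZNF530 to ZNF418. It also moved the share of all genes past the threshold that were higher from 54.5% to 60.9%. Scaling to library totals gave a distal median of -0.30. Without a fold limit 62 distal and 86 remaining genes passed, and with a limit of 2-fold 9 distal and 30 remaining genes. Leaving out each library in turn gave distal medians from -0.30 to -0.24, remaining medians from -0.21 to -0.17, and 20 to 26 distal and 40 to 44 remaining genes past the threshold. Leaving out genes that share over 20% of their windows or exonic bases, an alternative chosen after seeing the data, left 18 of 82 distal and 21 of 116 remaining genes lower. Moving the dividing position by 1 Mb either way gave distal medians of -0.26. Of 38 named genes 35 kept their direction and their side of the threshold in the 14 alternatives that refitted the test, wherever tested. ZNF580 passed under upper-quartile scaling (0.62) and without LNCaP-enzaR replicate 3 (0.60). ZNF358 and ZNF428, both near 0 and past the threshold in no alternative, changed sign: ZNF358 to 0.0859 under upper-quartile scaling, 0.00705 under the filter of 10 counts per library and 0.0069 among protein-coding genes, and ZNF428 to -0.0218 with library totals. Leaving out each library gave -0.0786 to 0.0425 for ZNF358 and -0.0559 to 0.0929 for ZNF428. Genes under 1 CPM rest on few counts.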
